A study of Mus musculus with 8 samples.

Results

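The nuclear envelope genes described here are Sun1, Sun2, Syne1, Syne2, Lmna, Lmnb1, Lmnb2, Lbr, Emd and Tmpo, 10 of 19938 genes measured on whole-transcript arrays. Each was read through the transcript cluster (the set of probes assigned to 1 transcript region) that carries its symbol alone and has the highest mean signal. The genes were chosen by their function and by the genotype differences in log2 signal on these same arrays, Sun2 being among the genes that differed. The differences between genotypes given for these genes are therefore a description, and their adjusted p-values, from limma over all genes, are not independent evidence.

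The arrays hold RNA of mouse naive CD4 T cells from 4 wild-type samples and from 4 samples labelled as a T cell-specific conditional Bcl6-/- (Bcl6 cKO here). The Bcl6 protein represses transcription and is needed for follicular helper T cells. All 8 samples were stimulated through CD3 and CD28 with antibodies for 24 hours, so both groups are stimulated cells, and unstimulated cells were not analysed here. The labels do not name the Cre driver, strain or age, nor whether each sample is a mouse of its own, and p-values here speak only to sample-to-sample spread, which may be technical. The labels also carry the tag Tf0, which they do not explain.

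SUN proteins sit in the inner nuclear membrane and bind the KASH domains of nesprins, which sit in the outer membrane and reach actin, microtubules and motor proteins. Together they form the LINC complex, which couples the nucleus to the cytoskeleton and takes part in placing the nucleus and the centrosome. Lamins form the meshwork under the inner membrane, and emerin, LAP2 and the lamin B receptor tie that meshwork and chromatin to the membrane. The genes are spread over the genome: Sun1 lies on chromosome 5, Sun2 on 15, Syne2 on 12, Lmna on 3, Lmnb1 on 18, Lbr on 1, Emd on X, and Syne1, Lmnb2 and Tmpo on 10. In T cells these proteins bear on how the nucleus deforms and where the centrosome goes during migration and contact with other cells.

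Sun2 and both nesprin genes were lower in Bcl6 cKO, and the B-type lamin gene Lmnb1 was higher. The fold between groups was 1.35 for Sun2 (95% confidence interval 1.22 to 1.48), 1.25 for Syne2, 1.18 for Syne1 and 1.19 for Lmnb1. The groups did not overlap for these 4 genes, 3 of them lower and 1 higher, as was the case for 5.97% of all genes (3.64% lower and 2.33% higher). The same 4 genes had an unadjusted p under 0.05, against 10.9% of all genes (6.17% lower and 4.68% higher). The other 6 genes overlapped between the groups, with differences of 0.09 or less on the log2 scale. Of the 10 genes 1, Sun2, passed an adjusted p of 0.05, against 0.221% of all genes. Since the genotype contrast chose the list, nothing is read from these counts. Standard errors of the log2 difference lay between 0.05 and 0.07 for the 10 genes, with a median of 0.065 over all genes. In such bulk RNA, fewer cells of a type and less RNA per cell cannot be told apart.

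**Figure D1:**
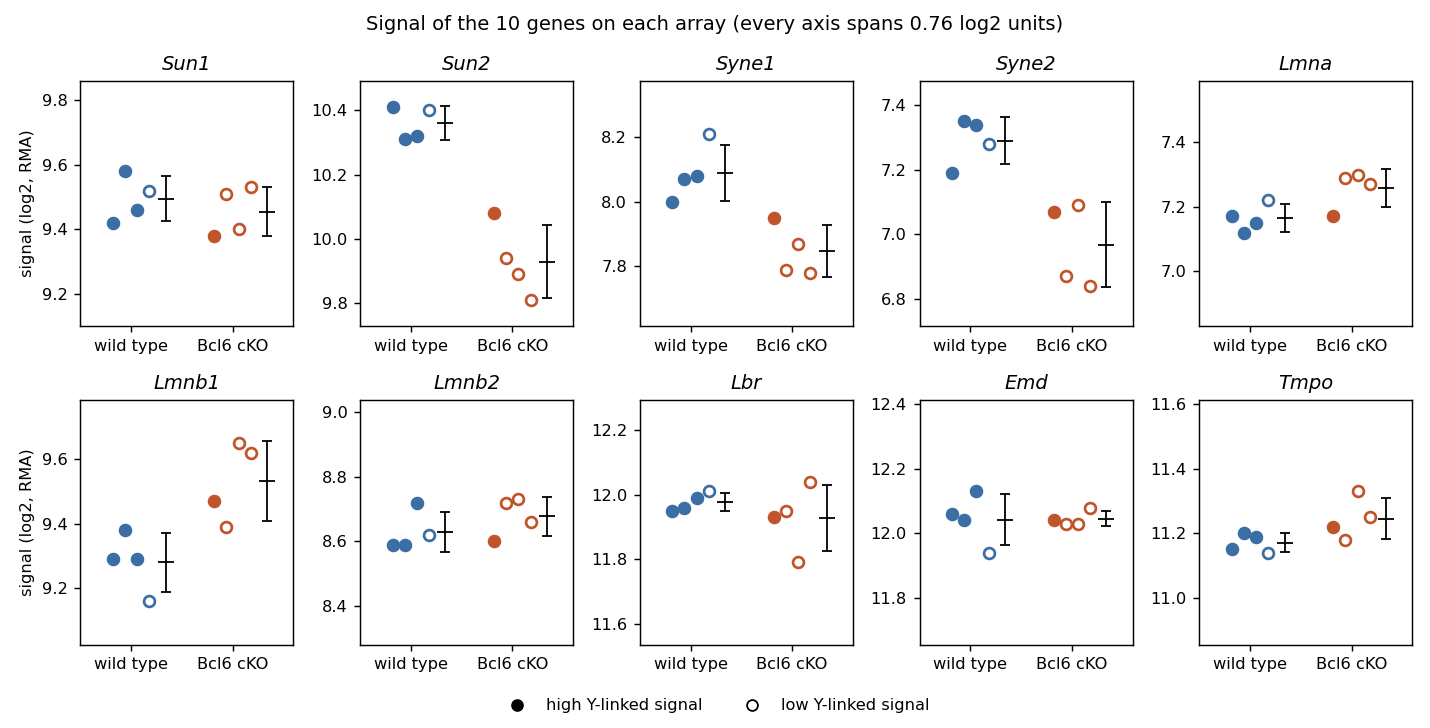
Signal (log2, RMA) of the 10 genes on each array, in wild type (blue) and Bcl6 cKO (orange). Each point is 1 array, filled where Y-linked genes were high and open where they were low, and the bars give mean ± SD (n = 4). The groups are apart for Sun2, Syne1, Syne2 and Lmnb1 and overlap for the other 6 genes.

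Sun2 encodes a SUN-domain protein of the inner membrane. Its signal in wild type was 10.41, 10.31, 10.32 and 10.40 (log2, replicates 1 to 4). In Bcl6 cKO it was 10.08, 9.94, 9.89 and 9.81. The wild-type arrays lay within 0.10 of each other, and the highest Bcl6 cKO array was 0.23 below the lowest wild-type array. The group means were 10.36 ± 0.05 and 9.93 ± 0.11 (SD, n = 4 each), a log2 difference of -0.43 with a standard error of 0.063 (limma, adjusted p = 0.0352). A difference of this size or larger in either direction was seen for 1.27% of all genes. Since the genotype contrast chose Sun2, nothing is read from that share. With the replicate number as a block, Sun2 did not pass (limma, adjusted p = 0.0515). The direction was kept with any 1 array left out, with log2 differences between -0.48 and -0.39. The call was not kept: Sun2 passed without Bcl6 cKO replicate 1 (adjusted p = 0.0119) and did not pass without any 1 of the other 7 arrays, wild-type replicates 1 to 4 and Bcl6 cKO replicates 2, 3 and 4 (adjusted p = 0.0676 to 0.124, limma).

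Sun1, the other widely expressed SUN gene, differed little. It read 9.42, 9.58, 9.46 and 9.52 in wild type and 9.38, 9.51, 9.40 and 9.53 in Bcl6 cKO, and the groups overlapped throughout. The log2 difference was -0.04 with a 95% confidence interval of -0.17 to 0.09 (adjusted p = 0.88), an interval that does not reach the difference of Sun2. Within genotypes the deviations of Sun1 and Sun2 from their group means ran in opposite directions (Pearson r = -0.60 over the 8 arrays, which share 1 normalization). Sun1 was higher on every even-numbered array (9.51 to 9.58) than on any odd-numbered array (9.38 to 9.46). The labels do not explain that split, and its part in this correlation was not tested.

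Syne1 encodes nesprin-1, a giant spectrin-repeat protein with a KASH domain at its end. It read 8.00, 8.07, 8.08 and 8.21 in wild type and 7.95, 7.79, 7.87 and 7.78 in Bcl6 cKO. Bcl6 cKO replicate 1 came within 0.05 of the lowest wild-type array. The log2 difference was -0.24 (standard error 0.061, adjusted p = 0.164), so Syne1 did not pass over all genes. A second cluster of Syne1 read 7.26, 7.31, 7.34 and 7.46 in wild type and 7.28, 7.14, 7.23 and 7.13 in Bcl6 cKO. It overlapped at Bcl6 cKO replicate 1, and its log2 difference was -0.15. On both clusters wild-type replicate 4 was the highest array and Bcl6 cKO replicate 4 the lowest.

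Syne2 encodes nesprin-2, the paralogue that also binds SUN proteins through a KASH domain. Its brightest cluster read 7.19, 7.35, 7.34 and 7.28 in wild type and 7.07, 6.87, 7.09 and 6.84 in Bcl6 cKO. The groups were 0.10 apart at their nearest arrays, and the log2 difference was -0.32 (standard error 0.071, adjusted p = 0.115). The array has 3 further clusters of Syne2, all lower in Bcl6 cKO with no overlap of the groups, against 6% of all clusters with 1 symbol. Of these the third cluster by mean signal had the largest difference, from 7.20, 7.30, 7.00 and 7.11 in wild type to 6.70, 6.55, 6.49 and 6.61 in Bcl6 cKO. Its log2 difference was -0.57 with a 95% confidence interval of -0.73 to -0.40. In a fit over all 21789 clusters with 1 symbol, of which 0.193% passed, this cluster had an adjusted p of 0.0208, and it is singled out here after its value was seen. The other clusters differed by -0.28 and -0.24. With the 4 clusters averaged, Syne2 had a log2 difference of -0.35 and passed over all genes (limma, adjusted p = 0.0362), so the choice of cluster decides its call. Which exons or isoforms the clusters of Syne1 and Syne2 read was not analysed here, and clusters of 1 gene are not replicates.

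**Figure D2:**
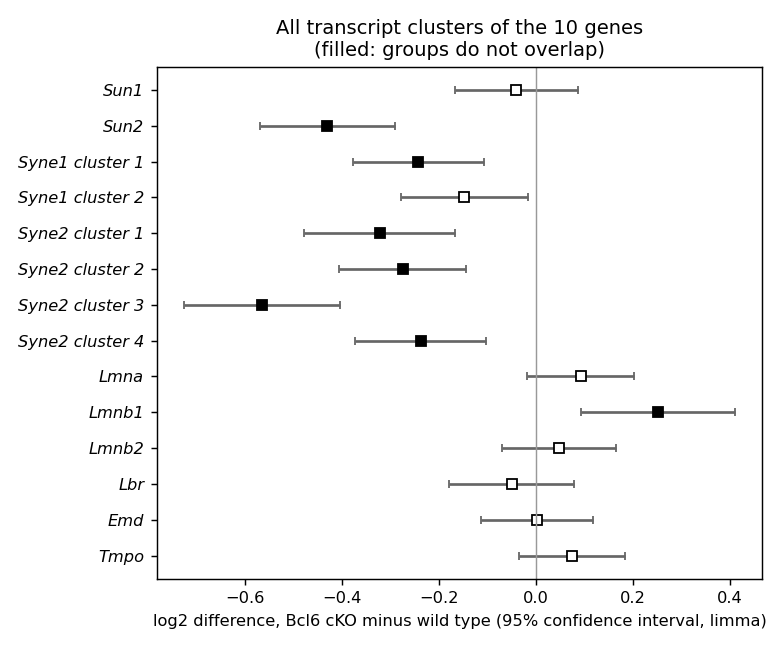
Log2 difference, Bcl6 cKO minus wild type, of all 14 transcript clusters of the 10 genes, with 95% confidence intervals from limma over all clusters with 1 symbol. Filled squares mark clusters whose groups do not overlap. All 6 clusters of Syne1 and Syne2 lie below 0, between -0.57 and -0.15, and 5 of them are filled. Groups did not overlap for 6% of all clusters with 1 symbol. Since the genotype contrast chose the genes, nothing is read from this count.

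The sequence upstream of the start was set out for Sun2, Syne1 and Syne2, the 3 genes of the list that were lower together. The lines give the 250 bases before the outermost listed start of each gene, 5′ to 3′ on the strand of the gene, from RefSeq (GRCm38.p6). Sun2 lies at chr15:79742537-79742786 (minus strand), Syne1 at chr10:5550693-5550942 (minus strand) and Syne2 at chr12:75818068-75818317 (plus strand). Capitals mark CCAAT on either strand, a promoter box bound by NF-Y.
Sun2: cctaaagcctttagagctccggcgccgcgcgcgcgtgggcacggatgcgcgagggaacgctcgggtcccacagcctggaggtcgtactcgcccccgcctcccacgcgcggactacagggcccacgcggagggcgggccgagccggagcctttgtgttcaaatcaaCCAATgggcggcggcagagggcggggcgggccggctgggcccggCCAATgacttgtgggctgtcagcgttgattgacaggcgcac
Syne1: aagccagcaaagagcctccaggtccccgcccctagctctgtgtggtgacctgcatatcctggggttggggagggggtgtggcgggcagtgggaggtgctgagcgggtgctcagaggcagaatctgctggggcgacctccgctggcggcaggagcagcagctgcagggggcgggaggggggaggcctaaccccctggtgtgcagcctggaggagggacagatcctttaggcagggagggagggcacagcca
Syne2: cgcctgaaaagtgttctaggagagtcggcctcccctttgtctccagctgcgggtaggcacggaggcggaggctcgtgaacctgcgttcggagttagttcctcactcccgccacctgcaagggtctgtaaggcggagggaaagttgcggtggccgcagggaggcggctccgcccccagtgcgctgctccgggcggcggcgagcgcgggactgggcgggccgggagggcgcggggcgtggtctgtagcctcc
All 3 windows shown are rich in G and C, at 70.8% for Sun2, 68.0% for Syne1 and 70.0% for Syne2. The median of all windows was 52.4%. Windows at the outermost start of Sun1 (70.0%), Tmpo (70.8%) and Lbr (69.6%), genes whose groups overlapped, were as rich. Those of Lmna, Lmnb2 and Emd held 51.2% to 56.4%. The further windows of Syne1 held 38.8% and 50.8%. The Sun2 window holds CCAAT at 85 and 41 bases before the start, and those of Syne1 and Syne2 hold none. Among the 15 windows listed for 9 of the 10 genes, CCAAT was in 7, belonging to Emd, Lbr, Lmna, Sun1, Sun2 and Tmpo. It was found in 33.8% of the 32851 windows of this length in the table. TTCCTNGAA, the core of the sequence that Bcl6 is known to bind, was searched on both strands. It was in none of the 15 windows listed for 9 of the 10 genes and in 1.31% of all windows. TTTGAA, a core bound by TCF and LEF factors, lies 95 bases before the start of Sun2. It is in 3 of the 15 windows, 1 each for Sun2, Lbr and Tmpo, and in 16.0% of all windows. TTTNGCGC, an E2F-type motif, is in 1 of the 15 windows, for Tmpo, and in 1.13% of all windows. A match or its lack describes the letters of these windows only. Lmnb1 has no window in the table used.

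Lamin genes differed from each other in how far the genotypes were apart. Lmnb1, which encodes lamin B1, read 9.29, 9.38, 9.29 and 9.16 in wild type. In Bcl6 cKO it read 9.47, 9.39, 9.65 and 9.62, and Bcl6 cKO replicate 2 stood only 0.01 above the highest wild-type array. The log2 difference was 0.25 with a 95% confidence interval of 0.09 to 0.41 (limma, adjusted p = 0.211), so it did not pass. Lmnb2, which encodes lamin B2, read 8.59, 8.59, 8.72 and 8.62 in wild type and 8.60, 8.72, 8.73 and 8.66 in Bcl6 cKO. These arrays were interleaved, and the log2 difference was 0.05 (95% confidence interval -0.07 to 0.17). Lmna, the gene of lamins A and C, read 7.17, 7.12, 7.15 and 7.22 in wild type and 7.17, 7.29, 7.30 and 7.27 in Bcl6 cKO. Here 3 of the 4 Bcl6 cKO arrays were above every wild-type array and replicate 1 was not. The log2 difference of Lmna was 0.09 (adjusted p = 0.557).

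The genes of the membrane proteins that hold lamins or chromatin overlapped between the genotypes. Emd encodes emerin, a LEM-domain protein. It read 12.06, 12.04, 12.13 and 11.94 in wild type and 12.04, 12.03, 12.03 and 12.08 in Bcl6 cKO, with a log2 difference of 0.00 (95% confidence interval -0.11 to 0.12). Lbr encodes the lamin B receptor, which is also a sterol reductase. It read between 11.95 and 12.01 in wild type and 11.93, 11.95, 11.79 and 12.04 in Bcl6 cKO, where replicate 3 was the lowest and replicate 4 the highest of the 8 arrays. Its log2 difference was -0.05. Tmpo encodes the LAP2 proteins, of which LAP2 beta binds lamin B. It read 11.15, 11.20, 11.19 and 11.14 in wild type and 11.22, 11.18, 11.33 and 11.25 in Bcl6 cKO, and 1 knockout array, replicate 2, lay inside the wild-type range. The log2 difference was 0.08 with an adjusted p of 0.653 (limma).

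Lmnb1 and Tmpo are commonly counted among genes of dividing cells, and their arrays were set beside the mean signal of 24 other proliferation genes. That mean was 9.52, 9.81, 9.55 and 9.34 in wild type and 9.66, 9.59, 9.96 and 10.07 in Bcl6 cKO. Of the 24 genes 23 were above wild type, with a median log2 difference of 0.24, and none passed over all genes (7 at an unadjusted p under 0.05, where 10.9% of all genes were). Top2a, the topoisomerase of dividing cells (log2 difference 0.45, adjusted p = 0.226), Ccne2, a cyclin of entry into S phase (0.49), and Bub1, a spindle checkpoint kinase (0.58), had the smallest p-values of the list. The mean of the list, Lmnb1 and Tmpo were all lowest on wild-type replicate 4. All were at their highest 2 values on Bcl6 cKO replicates 3 and 4. Within genotypes Lmnb1 and Tmpo deviated together (Pearson r = 0.87 over the 8 arrays), and Lmnb1 and Sun2 in opposite directions (r = -0.62). The part of proliferation in the differences of the 10 genes was not tested.

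**Figure D3:**
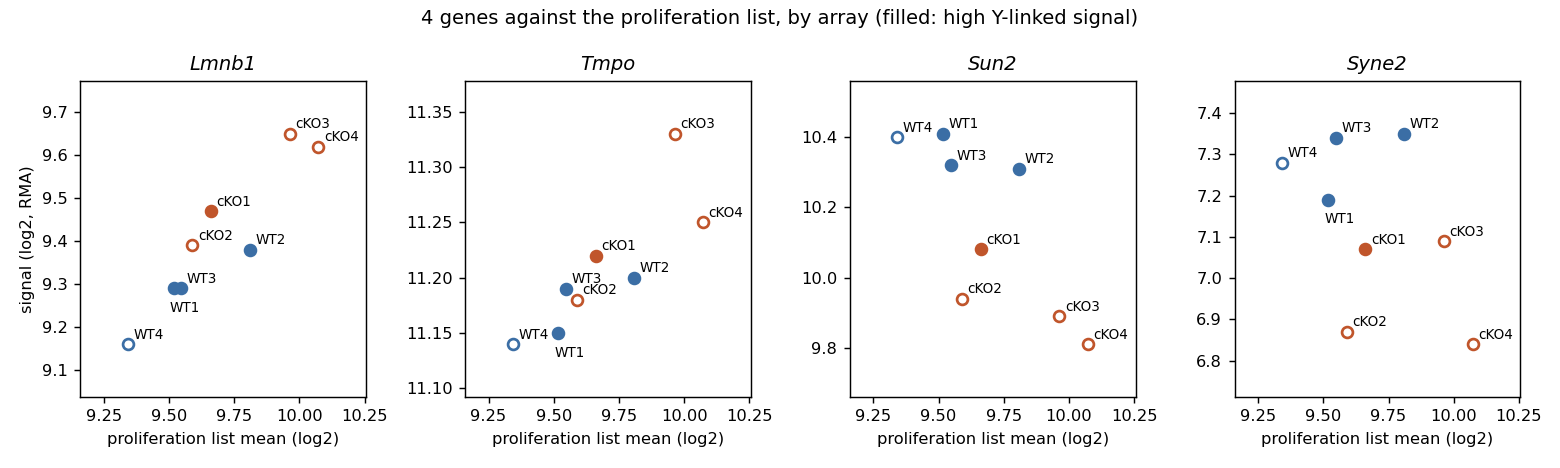
Signal (log2, RMA) of Lmnb1, Tmpo, Sun2 and Syne2 on each array against the mean log2 signal of 24 proliferation genes. Points are arrays (blue wild type, orange Bcl6 cKO, filled where Y-linked genes were high). Lmnb1 and Tmpo are highest on Bcl6 cKO replicates 3 and 4, which also have the highest proliferation means, 9.96 and 10.07.

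Other genes of the nuclear envelope showed none past the threshold, which 0.221% of all genes passed, so nothing is read from that count. Of 19 further membrane genes 1 had an unadjusted p under 0.05, against 10.9% of all genes. Of the 19, 13 were above and 5 below wild type, and Tmem201 was equal, with a median log2 difference of 0.02. Their 3 smallest p-values belonged to Tmem109 (0.23, adjusted p = 0.328), Ankle2, which takes part in reforming the envelope after mitosis (0.11), and Spag4, a SUN-domain gene (0.09). Of 5 lamin processing genes 3 were above wild type, and Zmpste24, the protease that matures prelamin A, had a log2 difference of 0.16 with groups that did not overlap (adjusted p = 0.284). The next in that list were Rce1 at 0.13 and Fnta at -0.09.

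Nuclear pore genes were mostly above wild type by small amounts. Of 28 measured, 25 were above wild type, with a median log2 difference of 0.11, where the median of all genes was 0.00. None passed over all genes, and 5 of 28 had an unadjusted p under 0.05, against 10.9% of all genes. The groups did not overlap for 17.9% of them, against 5.97% of all genes. Nup155 (log2 difference 0.19, adjusted p = 0.226), the membrane nucleoporin Ndc1 (0.21) and Nup107 (0.19) had the smallest p-values. Each was lowest on wild-type replicate 4, the array with the lowest estimated weight (0.367). The array means of the pore list overlapped, at 10.8289 to 11.0032 in wild type and 10.9761 to 11.1375 in Bcl6 cKO. Of 12 genes for envelope breakdown, nuclear import and chromatin tethering, all 12 were above wild type, with a median of 0.15 and none past the threshold. An unadjusted p under 0.05 was found for 3 of 12, against 10.9% of all genes, and 2 of the 12, Cdk1 and Plk1, are also in the proliferation list. The importins Kpnb1 (0.16, adjusted p = 0.289) and Kpna2 (0.19) and the mitotic kinase Plk1 (0.32) led that list. They too were lowest on wild-type replicate 4. The array means of that list did not overlap (10.6492 to 10.8892 in wild type, 10.8917 to 11.0733 in Bcl6 cKO). The part of wild-type replicate 4 in the shifts of both lists was not tested.

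Among 17 motor, centrosome and cytoskeletal partners of nesprins, 8 were higher and 9 lower in Bcl6 cKO, with a median log2 difference of -0.005. Against 10.9% of all genes, 1 of the 17 had an unadjusted p under 0.05. That gene was Plec, which encodes plectin, the linker that nesprin-3 binds. It read 9.15, 9.22, 9.30 and 9.31 in wild type and 9.04, 8.88, 8.87 and 8.79 in Bcl6 cKO, so the groups were apart. The log2 difference was -0.35 (standard error 0.064), and it did not pass over all genes (limma, adjusted p = 0.0605). Mapre1 (0.12) and Akap6 (0.12) followed.

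**Figure D4:**
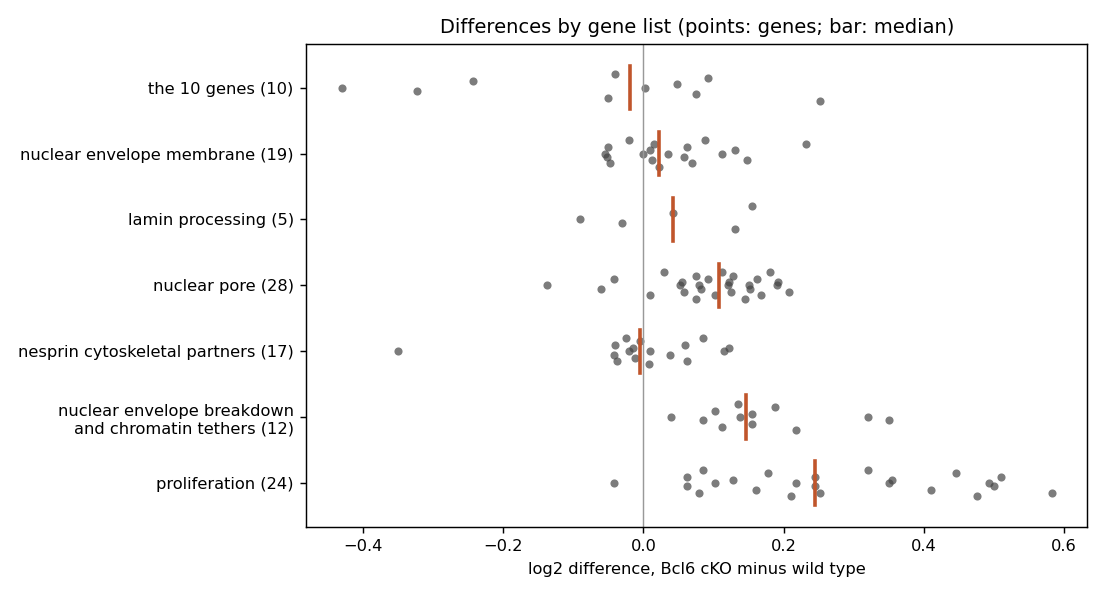
Log2 difference, Bcl6 cKO minus wild type, of the 10 genes and of 6 further lists. Each point is a gene, the bar is the list's median and the number of genes is in brackets. Sun2, Syne2 and Syne1 form the left end of the 10 genes, Plec at -0.35 stands apart among nesprin partners, and nuclear pore genes centre on 0.11.

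Over the 8 arrays the genes most like Sun2 were the kinase gene Snrk (Pearson r = 0.99), Pik3cd, which encodes the leukocyte subunit p110 delta of phosphoinositide 3-kinase (0.98), Tmem121b, Hoxb6 and Tnfaip8l1 (0.98 each). Snrk read 10.51, 10.50, 10.53 and 10.55 in wild type and 10.37, 10.28, 10.25 and 10.18 in Bcl6 cKO. It thus kept the order of the Bcl6 cKO arrays seen for Sun2, with replicate 1 highest and replicate 4 lowest. Of the deviations from the group means, r with Sun2 was 0.91 for Snrk, 0.87 for Pik3cd and 0.92 for Tmem121b. The most opposite genes were Bdh1 (r = -0.99), the retinoid receptor gene Rxra (-0.98) and Cpd (-0.97), which were higher in Bcl6 cKO. These correlations are descriptions over arrays that share the genotype contrast and 1 normalization. Of the list, Syne1 (0.90) and Syne2 (0.86) were nearest to Sun2 and Lmnb1 was the most opposite (-0.88).

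The sex of the samples, which the labels do not give, differed between the groups. Y-linked genes were high and Xist low on wild-type replicates 1 to 3 and Bcl6 cKO replicate 1, and the reverse held on the other 4 arrays. Bcl6 cKO replicate 1 was also the knockout array nearest to wild type for Sun2 and Syne1. Where Y-linked signal was high, Sun2 differed by -0.27 on the log2 scale, and on the other arrays by -0.52. With sex as a term it was -0.39 and did not pass (limma, adjusted p = 0.146). For Syne2 the differences within these sets of arrays were -0.22 and -0.35, for Syne1 -0.10 and -0.40, and for Lmnb1 0.15 and 0.39. All 4 genes kept their sign in both sets, and each set holds 1 array of a genotype against 3. The genotype effects of the 10 genes in the sexes were not shown to differ (interaction, limma, adjusted p = 0.382 or higher, and 0.44 for Sun2).

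The deleted gene gives no check of the labels. Bcl6 read 8.47, 8.33, 8.56 and 8.10 in wild type and 9.05, 8.67, 8.83 and 8.40 in Bcl6 cKO (log2 difference 0.37, limma, adjusted p = 0.337), and the labels do not say which exons were removed. Markers of CD4 T cells (8 of 10 measured) had mean signals between 11.3 and 13.2, and 7 activation markers between 12.2 and 13.1. Of the CD4 T cell markers 7 of 8 were lower in Bcl6 cKO. Cd3d and Cd3e had no overlap, against 5.97% of all genes. The array means of that list did not overlap (12.54 to 12.57 in wild type, 12.39 to 12.51 in Bcl6 cKO). Those of the dendritic cell list (4 of 4 measured, all lower) did not overlap either, at 6.8625 to 6.975 and 6.825 to 6.85. The array means for B cells (5 of 6 measured, 4 higher), myeloid cells (8 of 8, 5 higher and 3 lower) and natural killer cells (3 of 3, 1 higher and 2 lower) overlapped between the genotypes and ran from 4.77 to 6.50. Y-linked genes on arrays without them read 4.58 to 5.83, which serves as a guide to background. The 10 genes read 6.84 or more on every array. Some genes of other lineages also read above that guide, with wild-type means of 7.41 for Cd79b and 7.58 for Zbtb46, while Ms4a1 read 5.15. Syne2, at 6.84 to 7.35, and Lmna, at 7.12 to 7.30, lie at such levels and below the array medians of 7.57 to 7.64. The third Syne2 cluster fell to 6.49. Whether Syne2 and Lmna read above background was not tested. Means of the naive list (4 of 6 measured, all 4 lower) ran from 11.5 to 12.1 in wild type and 11.3 to 11.7 in Bcl6 cKO. Those of the CD8 list (3 of 3, all lower) ran from 7.96 to 8.17 and 7.80 to 7.99. Of that list Cd8a (log2 difference -0.02) and Gzmk (-0.03) differed little and overlapped, where Cd8b1 differed by -0.47. Means of the regulatory T cell list (2 of 2, both lower) ran from 8.585 to 8.865 and 8.095 to 8.62. Among single markers the Foxp3 mean went from 9.73 (wild type) to 9.23, Cd8b1 from 11.04 to 10.57, Fcgr3 of the myeloid list from 7.17 to 6.85 and Klrb1c of the natural killer list, which reads below the Y-linked background range, from 4.12 to 3.99. Each had groups that did not overlap, as was the case for 5.97% of all genes. Of the naive list, Lef1 (12.42 to 12.19) and Ccr7 (13.515 to 13.458) did not overlap either. Klf2 (log2 difference -0.63) and Il7r (-0.52) of that list were lower with groups that overlapped. None of these markers passed the threshold. Ncr1 of the natural killer list went the other way, from 5.59 to 5.74. Their part in the differences of Sun2 and the nesprin genes was not tested. Wild-type replicate 4 had the lowest estimated array weight (0.367, the next being 0.759), and without it Sun2 differed by -0.42, Syne1 by -0.20 and Lmnb1 by 0.21.

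**Figure D5:**
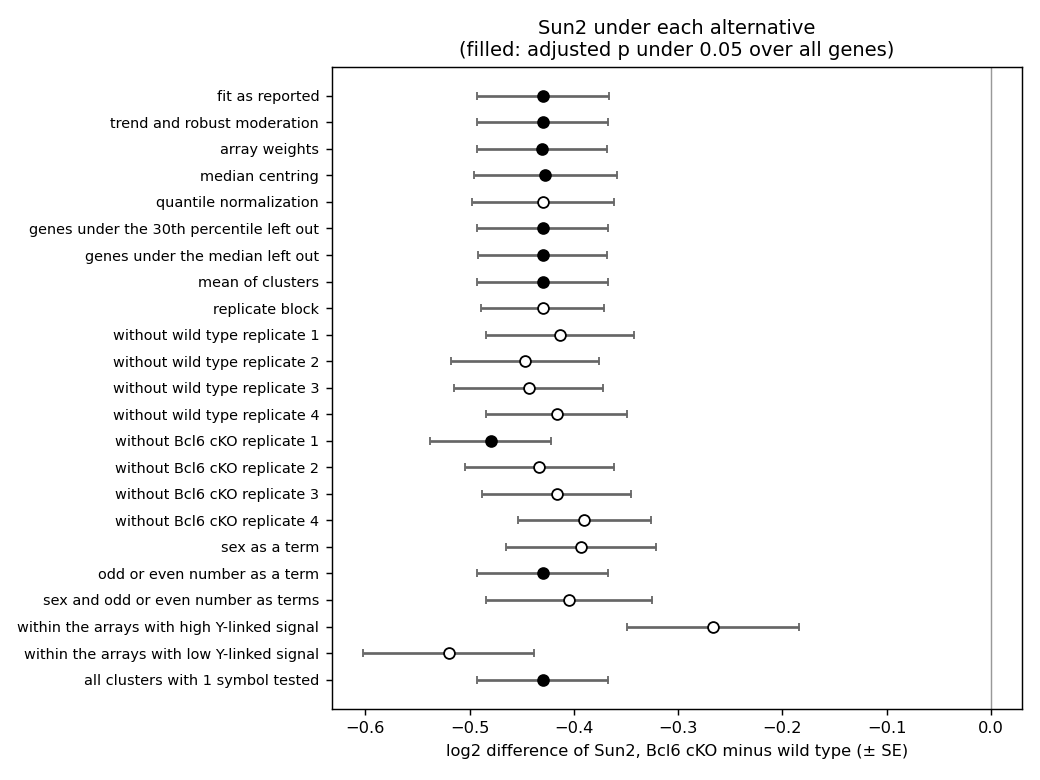
Log2 difference of Sun2, Bcl6 cKO minus wild type, with its standard error, in the fit as reported and under each alternative. Filled points have an adjusted p under 0.05 over all genes or clusters tested. All values lie between -0.52 and -0.27, and 9 of the 22 alternatives are filled.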

How the data were processed

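The authors deposited log2 signals of 35556 transcript clusters on 8 arrays. The submitters' processing notes name Partek and RMA without versions or settings. RMA makes the array distributions alike and lowers differences of dim genes. The platform annotation gives 1 symbol to 21789 clusters, several to 1621 and none to 12146. The brightest cluster was kept for each of 19938 genes. Bcl6 cKO was compared with wild type with limma 3.58.1 under R 4.3.3, fitted by lmFit and moderated by eBayes with no covariate, with Benjamini-Hochberg adjustment over all genes and a threshold of 0.05. The fit was tested on simulated arrays with independent noise and planted differences larger than that of Sun2. Those arrays held no effect of sex, replicate number or pairing. The members, the lists and the rule for named genes (all members, Bcl6, the 3 genes of smallest p in each list, and the genes of highest and lowest correlation with Sun2) were chosen with earlier results of these data known. Listed genes that matched no symbol were not used here. Sex was read from Y-linked genes. Arrays have no read depth, so their number limits the precision. Other settings tried are those of the closing section.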

Additional observations from a re-analysis of the deposited data

How the results depend on the processing

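Sun2, Syne1, Syne2, Lmnb1, Sun1, Lmna, Lbr and Tmpo kept their direction under every alternative in which they were tested; Syne2 and Lmna are not in the fit without genes under the median signal. The log2 difference of Sun2 no longer passed after quantile normalization (-0.43, adjusted p = 0.05002), with the replicate number as a block (replicate block: -0.43, adjusted p = 0.0515), with sex (-0.39), with sex and odd or even number (-0.405), or within the arrays with high (-0.27) or low (-0.52) Y-linked signal. Without 1 array it ran from -0.48 to -0.39. Of the 10 genes 0 passed under these 6 settings, while 4 had an unadjusted p under 0.05 (1 within the high Y-linked arrays). Without 1 array between 0 and 1 passed, and 2 with the mean of clusters, Syne2 joining Sun2. Over all genes 44 passed: 91 with trend and robust moderation, 80 with array weights, 67 and 75 without genes under the 30th percentile or the median, 93 with odd or even number, 10 with sex, 10 with sex and odd or even number, 0 within the high Y-linked arrays (852 unadjusted), and 11 to 139 without 1 array. Higher against lower was 21 and 23 as reported, 19 and 13 after median centring, 22 and 14 after quantile normalization, and 32 and 11 within the low Y-linked arrays (43 called, 3927 unadjusted). It was 30 and 61 with trend and robust moderation, 29 and 51 with array weights, 25 and 42 and 23 and 52 with the 2 filters, 33 and 60 with odd or even number, and 39 and 100 without Bcl6 cKO replicate 1. Emd turned below 0 with array weights (-0.0203), quantile normalization (-0.014) and within the high Y-linked arrays (-0.037), and ran from -0.0317 to 0.0317 without 1 array; Lmnb2 turned to -0.0333 within the high Y-linked arrays. The cause of these changes was not tested. The labels state no pairing, and the fit as reported does not pair the samples. Same-numbered arrays correlated by 0.0731 to 0.206 in their deviations. In each genotype 3 of 4 arrays correlated best with their own number, so a pairing is not excluded. The fit over all clusters and the interaction with sex were added after seeing the data.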
